A study of Mus musculus with 6 samples.

Results

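The 10 reactive gliosis genes described here were *Gfap*, *Vim*, *Lcn2*, *Serpina3n*, *Edn2*, *Fgf2*, *Stat3*, *Socs3*, *Osmr* and *Cebpd*, listed as genes of reactive Müller glia and astrocytes. Not all are particular to glia, and *Edn2* is known to be induced in stressed photoreceptors. The 10 genes were chosen by symbol from the 31169 genes in the count table, and all 10 were among the 17707 genes with enough counts to be tested. Poly(A) RNA was sequenced from whole retina of C57BL/6 mice after injection into the anterior chamber of the eye at 1 month of age. The 3 control retinas received saline. The 3 others received polystyrene microbeads of 15 μm diameter, which obstruct aqueous outflow and raise intraocular pressure (IOP). All retinas were taken 4 weeks later, at 2 months of age. The methods of the study describe the mice as male, the injections as bilateral, and the RNA as kept only above an integrity value of 6. Each library was taken as 1 replicate, and the records do not state that the retinas came from separate mice, so the p-values below measure the spread between these libraries. Total counts were 36085737 to 46481382 in the saline and 13574949 to 19834366 in the microbead libraries. In the description field of the records, the saline libraries carry names of one series and the microbead libraries names of another, so the injection and anything shared within a library series cannot be told apart.

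Gliosis is the response of glia to injury or stress. In the retina, Müller glia span the full thickness of the tissue and astrocytes lie among the ganglion cell axons at its inner surface. Cytokines of the interleukin-6 family bind receptors that signal through the shared subunit gp130 and Janus kinases to the transcription factor STAT3, which turns on genes including *Gfap* and its own inhibitor *Socs3*. Glaucoma models are known for raised GFAP in Müller glia. In whole retina, a lower level of a gene can come from fewer cells that express it or from less RNA per cell, and these cannot be told apart.

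Across all 6 libraries, 3 of the 10 genes were lower after microbead injection and 0 were higher at an adjusted p under 0.05 (edgeR quasi-likelihood test, Benjamini-Hochberg adjustment over all genes tested). Those 3 were *Vim*, an intermediate filament of Müller glia, *Cebpd*, an acute-phase transcription factor, and *Socs3*, the feedback inhibitor. Among all genes tested, 6.31% were lower and 6.46% were higher by the same rule. DESeq2 called 3 of the 10 genes lower and 0 higher, against 9.6% and 10.6% of the 17707 genes entered. It gave *Serpina3n* no adjusted p, and genes without one are counted among those entered. With limma-voom 1 was lower and 0 were higher, against 5.86% and 6.62%. In the edgeR fit, the log2 fold change of microbead over saline was negative for 9 of the 10 genes and for 9221 of the 17707. Its median was -0.69 over the 10 genes and -0.031 over all genes tested. Median and direction depended on the method and on a single control retina. With all libraries kept, the median over the 10 genes was -0.30 with limma-voom and -0.27 with the replicate number as a block in edgeR. In each of those fits 4 of the 10 were positive. Without saline replicate 1, the median over the 10 genes was 0.38, 7 of them had a positive log2 fold change, 2 were called higher and 2 lower, with 7.83% of all genes tested called higher and 7.30% lower.

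That retina stood apart in these genes. Saline replicate 1 held the highest level of the 6 libraries for 8 of the 10 genes, against 16.4% of all genes tested. In 6 of the 10 its level was at least 2-fold above each other saline library, which held for 3.29% of all genes. *Socs3* was instead at least 2-fold above both other saline libraries in saline replicate 3, as were 1.05% of all genes. The SD of the log2 level (log2 of counts per 1000000, CPM, plus 0.5) was larger among the saline than among the microbead libraries for 10 of the 10 genes and for 44.3% of all genes. The ratio of the highest to the lowest saline library ran from 1.57 for *Vim* to 34.1 for *Socs3*, and the same ratio among the microbead libraries ran from 1.08 for *Edn2* to 5.20 for *Lcn2*.

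**Figure D1:**
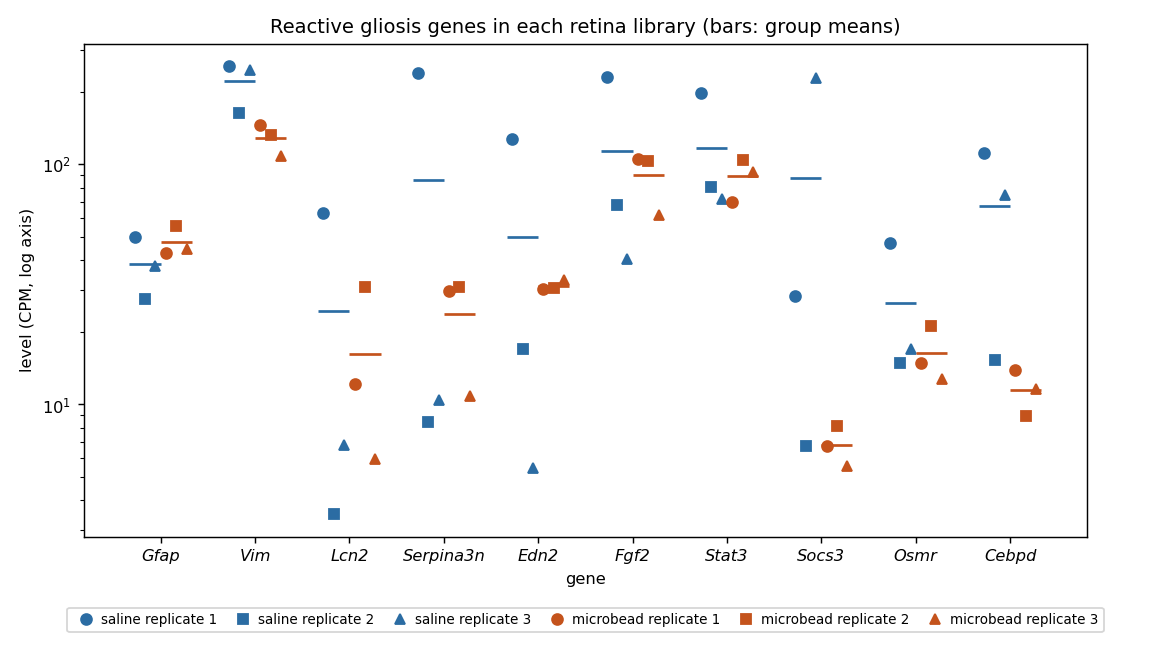
Level of each of the 10 genes (CPM, log axis) in the 3 saline (blue) and 3 microbead (orange) libraries, with replicates 1, 2 and 3 as circles, squares and triangles and group means as bars. Saline replicate 1 was the highest library for 8 genes, and saline replicate 3 for *Socs3*.

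Cell type markers measured in the same libraries moved with these departures. Of 10 retinal ganglion cell (RGC) marker genes, 9 were at their lowest in saline replicate 1. The share of all genes tested that were lowest there was not computed. The 10 markers summed to 395 CPM in saline replicate 1, to 1043 and 1330.2 CPM in saline replicates 2 and 3, and to 919.6 to 1215 CPM after microbead injection. Of 10 microglia markers, 9 were at their highest in saline replicate 1, against 16.4% of all genes tested. They summed to 231 CPM in that library, to 78.2 and 114 CPM in the other saline libraries and to 56.8 to 123 CPM after microbead injection. The 8 blood leukocyte markers summed to 32.8 CPM in saline replicate 1, to 7.98 and 7.62 CPM in saline replicates 2 and 3, and to between 2.60 and 37.3 CPM in the microbead libraries. Saline replicate 1 was thus the library lowest in RGC markers and highest in microglia markers. Saline replicate 3 was the highest library for 5 of 7 lens markers, and for 4489 of the 17707 genes tested. It held lens RNA, with a lens marker sum of 329.9 CPM. That sum was 27.1 CPM in saline replicate 1, 1.02 CPM in saline replicate 2 and 0.650 to 1.56 CPM after microbead injection. The lens gene *Crybb2* had 0 counts in all 3 microbead libraries and *Cryaa* in 2 of them, at a depth where 3 counts were 0.154 to 0.217 CPM. The 8 pigment epithelium markers summed to 171 CPM in saline replicate 3, to 9.67 and 38.1 CPM in saline replicates 1 and 2, and to 83.2 to 99.9 CPM after microbead injection. The part of these differences in the levels of the reactive gliosis genes was not tested.

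**Figure D2:**
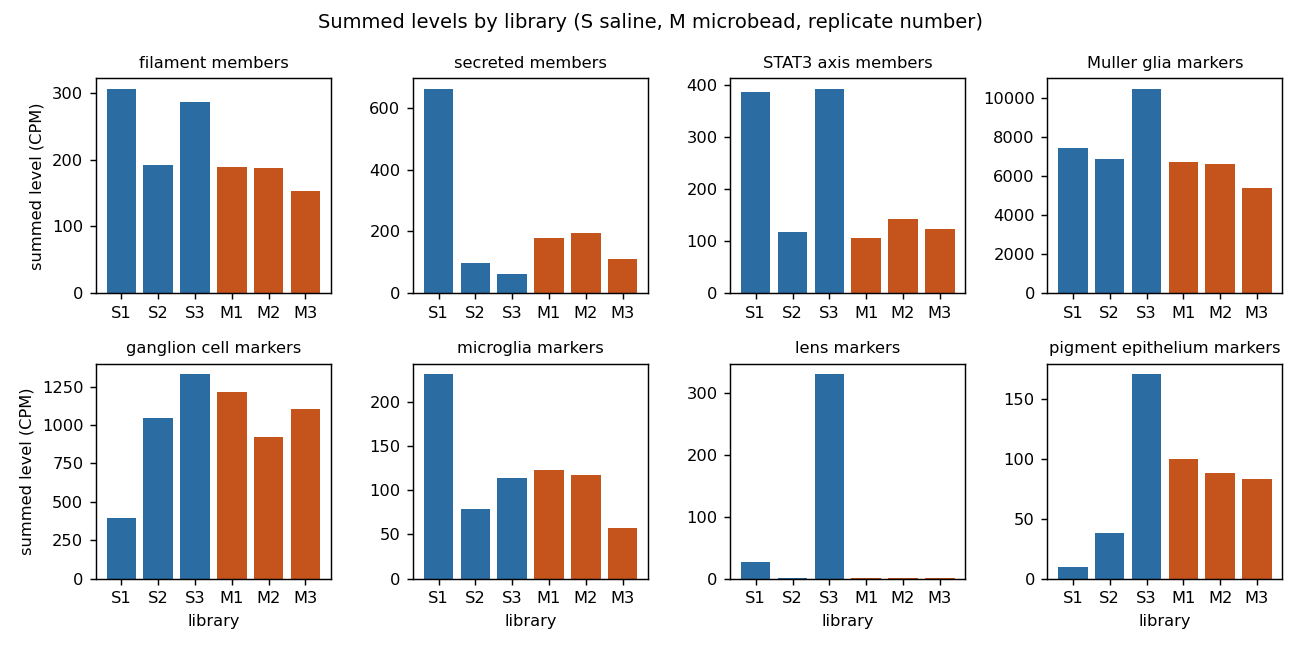
Summed level (CPM, linear axes from 0) of the 2 filament genes, the 4 secreted factors, the 4 STAT3 axis genes and 5 marker lists in each library (S saline in blue, M microbead in orange). The secreted factors reached 663 CPM in saline replicate 1 and at most 195 CPM elsewhere, and the RGC markers were at their lowest, 395 CPM, in the same library.

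The first group held the intermediate filaments, the structural proteins that mark reactive glia. *Gfap* (glial fibrillary acidic protein, GRCm38 chromosome 11, 102887336 to 102900912) was at 49.9, 27.5 and 37.8 CPM in saline replicates 1, 2 and 3 and at 42.9, 55.5 and 44.6 CPM in the microbead replicates. The groups overlapped, because saline replicate 1 lay among the microbead libraries. The log2 fold change was 0.31 with a standard error of 0.23 and an adjusted p of 0.393 (edgeR), and its 95% interval of -0.21 to 0.83 spanned 0. Each of the 6 fits that left out a library gave a positive value for *Gfap*, from 0.12 to 0.54, with adjusted p-values of 0.123 to 0.809 (edgeR). A noncoding gene on the opposite strand, *Gm26668*, overlaps *Gfap* and was at 2.42 CPM or less. *Gfap* was the only 1 of the 10 genes with a positive log2 fold change in the edgeR fit of all 6 libraries without a replicate block.

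*Vim* (vimentin, chromosome 2, 13573927 to 13582826) was at 256, 164 and 248 CPM in the saline libraries and at 146, 133 and 109 CPM in the microbead libraries. Every microbead library lay below every saline library. Non-overlap with microbead lower was found for 2 of the 10 genes and for 18.9% of all genes tested. Mean *Vim* was 223 ± 51.1 CPM (SD, n = 3) after saline injection and 129 ± 19.0 CPM (SD, n = 3) after microbead injection. This gave a log2 fold change of -0.79 with a standard error of 0.22 and an adjusted p of 0.0438 (edgeR), and the exact two-sided permutation test of the means gave p = 0.1, the smallest that 3 against 3 libraries allow. The call was close to the threshold: leaving out any 1 of the 6 libraries kept the direction, at -0.97 to -0.67, and put the adjusted p at 0.0588 to 0.163 (edgeR), and upper-quartile scaling put it at 0.0521. *Vim* is also made by blood vessels. The summed markers listed for Müller glia, astrocytes and endothelium did not overlap between the groups either, although few single markers passed the test. Taken singly, 4 of 12, 4 of 8 and 4 of 10 of them, in that order, had every microbead library below every saline library. The share among all genes tested was 18.9%. The most abundant Müller glia and endothelial markers, *Glul* and *Kdr*, overlapped between the groups, so these sums do not show a fall across each list. The sums of the 8 pericyte and smooth muscle markers did overlap. They were 137 to 212 CPM in the saline and 107 to 171 CPM in the microbead libraries, with 2 of 8 lower. The 12 Müller glia markers summed to 6833 to 10453 CPM in the saline and 5354 to 6692 CPM in the microbead libraries, with 3 of 12 lower and 0 higher. The 8 astrocyte markers summed to 419 to 504 and 282 to 356 CPM. Of the 7 tested, 1 was lower, *Aldh1l1* (log2 fold change -1.23, adjusted p = 0.0307, edgeR). The astrocyte sum was mostly 1 gene, the glutamate transporter gene *Slc1a2*, at a mean of 392 CPM in saline and 274 CPM in microbead libraries. Which retinal cells its RNA came from was not tested, so the sum is not a reading of astrocytes alone. *S100b*, *Gja1* and *Pax2* had positive log2 fold changes of 0.62, 0.44 and 0.39 that did not pass. The 10 endothelial markers summed to 472 to 674 and 296 to 443 CPM, with 4 of 10 lower. Among all genes tested, 6.31% were lower at the same threshold. Levels of single astrocyte markers differed widely. *Gjb6* had 0 counts in all 3 microbead libraries and at most 0.0415 CPM in a saline library, and *Pax2* was at 0.398 to 1.28 CPM. *S100b* was at 2.68 to 12.8, *Aldh1l1* at 9.93 to 40.9 and *Igfbp2* at 17.9 to 32.1 CPM. So did those of Müller glia markers, with *Glul* at 2003 to 4739 CPM and *Hes1* at 14.1 to 106 CPM. The part of these markers in the level of *Vim* was not tested.

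Filament partners behaved like *Vim* in direction. Of the 4 partners of GFAP and vimentin tested, 1 was lower and 0 were higher, against 6.31% and 6.46% of all genes tested. Their median log2 fold change was -0.78. *Synm*, which encodes the linker protein synemin, was at 62.6, 53.0 and 56.4 CPM in the saline libraries and at 26.2, 36.5 and 35.6 CPM in the microbead libraries, with a log2 fold change of -0.81, a standard error of 0.19 and an adjusted p of 0.0268 (edgeR). *Synm* passed without saline replicate 1 or 3, and did not pass without saline replicate 2 or any 1 of the microbead libraries (adjusted p = 0.0580 to 0.0933, edgeR). *Nes*, the filament nestin, was at 10.5 to 14.4 CPM in the saline and 3.55 to 8.74 CPM in the microbead libraries, and its log2 fold change of -0.92 did not pass (adjusted p = 0.0956, edgeR). Neither gene overlapped between the groups.

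The second group held 4 secreted factors. All 4 were highest in saline replicate 1, 0 of 4 passed the test, and their median log2 fold change was -0.63. *Lcn2* (lipocalin 2, an iron-siderophore carrier of the acute-phase response, chromosome 2, 32384633 to 32388252) was at 62.9, 3.48 and 6.79 CPM in the saline libraries and at 12.2, 30.8 and 5.91 CPM in the microbead libraries. The groups overlapped, and the log2 fold change was -0.59 with a standard error of 0.94 and an adjusted p of 0.710 (edgeR). Without saline replicate 1 it was 1.66 with a standard error of 0.59 and an adjusted p of 0.0788 (edgeR).

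*Serpina3n* (a secreted serine protease inhibitor, chromosome 12, 104406729 to 104414329) was at 239.9, 8.48 and 10.4 CPM in the saline libraries and at 29.6, 30.8 and 10.8 CPM in the microbead libraries. Saline replicate 1 was 25.4 times the mean of saline replicates 2 and 3, the widest such ratio among the 10 genes, and all 3 microbead libraries lay above saline replicates 2 and 3. The log2 fold change was -1.86 with a standard error of 1.09 and an adjusted p of 0.273 (edgeR), and without saline replicate 1 it was 1.33 with a standard error of 0.40 and an adjusted p of 0.0492 (edgeR). *Serpina3n* has close paralogs, and 21.6% of its 31-base stretches but 0.204% of its 100-base stretches also occur in transcripts of another locus, mainly *Serpina3f*, *Serpina3g* and *Serpina3m*. Those 3 paralogs were at 1.89 CPM or less in every library.

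*Edn2* (endothelin 2, a peptide ligand known to be induced in stressed photoreceptors, chromosome 4, 120161206 to 120167360) was at 128, 17.0 and 5.45 CPM in the saline libraries and at 30.4, 30.6 and 32.9 CPM in the microbead libraries. The microbead libraries were nearly equal, with a highest to lowest ratio of 1.08, while the saline libraries spanned a ratio of 23.5 on both sides of them. In the fit of all libraries it had a log2 fold change of -0.68 with a standard error of 0.85 and an adjusted p of 0.624 (edgeR). Without saline replicate 1 it was 1.47 with a standard error of 0.39 and an adjusted p of 0.0339 (edgeR). Of the 6 other endothelin pathway genes, 0 were lower and 0 higher, and among those averaging at least 1 CPM the receptors *Ednra* (log2 fold change -0.99, adjusted p = 0.212, edgeR) and *Ednrb* (-0.54, adjusted p = 0.272, edgeR) changed most.

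*Fgf2* (basic fibroblast growth factor, a survival factor for photoreceptors, chromosome 3, 37348346 to 37410108) was at 232, 67.9 and 40.3 CPM in the saline libraries and at 105, 103 and 61.8 CPM in the microbead libraries. It followed the pattern of the other secreted factors with a narrower spread. Across all libraries the log2 fold change was -0.33 with a standard error of 0.54 and an adjusted p of 0.710 (edgeR), and without saline replicate 1 it was 0.73 with a standard error of 0.30 and an adjusted p of 0.117 (edgeR). *Fgf2* overlaps *Nudt6* and *Fgf2os* on the opposite strand, and whether the counting used strand is not stated in the sources used here. *Fgf2os* was at 39.6, 4.65 and 1.71 CPM in the saline libraries and at 16.6, 15.4 and 9.03 CPM in the microbead libraries, the same order of saline libraries as *Fgf2*, while *Nudt6* ran from 1.54 to 2.58 CPM. Of 12 other FGF ligands, receptors and FGF-induced genes, 0 passed the test, with a median log2 fold change of -0.24. Among those averaging at least 1 CPM, the largest changes were those of the feedback inhibitors *Dusp6* (-1.19, adjusted p = 0.120, edgeR) and *Spry2* (-0.89, adjusted p = 0.0507, edgeR), both highest in saline replicate 3 at 66.1 and 112 CPM.

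**Figure D3:**
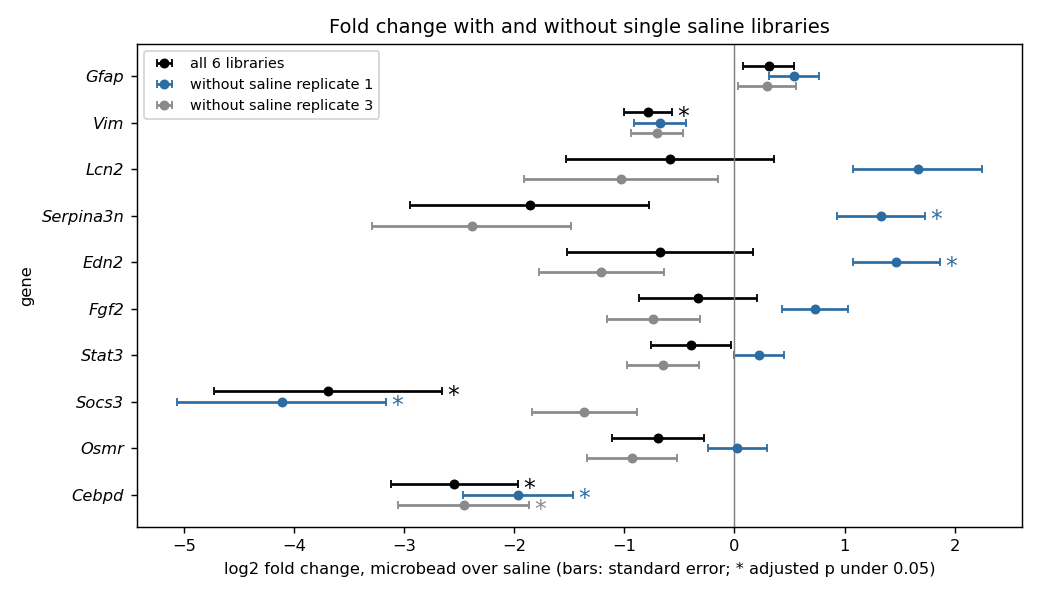
Log2 fold change of microbead over saline for the 10 genes in the fit of all 6 libraries (black) and in the fits without saline replicate 1 (blue) or 3 (grey), with standard errors as bars and stars at an adjusted p under 0.05 (edgeR). Without saline replicate 1, *Serpina3n* and *Edn2* were at 1.33 and 1.47, and without saline replicate 3, *Socs3* was at -1.36.

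The third group was the STAT3 axis, from a cytokine receptor to an inhibitor and a downstream transcription factor. *Osmr* (the oncostatin M receptor subunit that pairs with gp130, chromosome 15, 6813577 to 6874969) was at 47.3, 15.0 and 17.0 CPM in the saline libraries and at 14.9, 21.3 and 12.8 CPM in the microbead libraries, with a log2 fold change of -0.70 and a standard error of 0.42 (adjusted p = 0.289, edgeR). *Stat3* (chromosome 11, 100885098 to 100939540) was at 199, 80.6 and 72.0 CPM in the saline libraries and at 69.6, 105 and 93.3 CPM in the microbead libraries, with a log2 fold change of -0.39 and a standard error of 0.36 (adjusted p = 0.492, edgeR). In both genes saline replicate 1 was the highest library, and the other saline libraries lay inside the microbead range. The fit without saline replicate 1 gave 0.027 for *Osmr* and 0.22 for *Stat3* on the log2 scale, with standard errors of 0.26 and 0.23 and adjusted p-values of 0.956 and 0.532 (edgeR). *Stat3* overlaps *Stat5a* on the opposite strand at their ends, and *Stat5a* stayed between 4.32 and 6.57 CPM.

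*Socs3* (suppressor of cytokine signalling 3, chromosome 11, 117966079 to 117970047) was at 28.3, 6.70 and 228 CPM in the saline libraries and at 6.69, 8.16 and 5.52 CPM in the microbead libraries. Saline replicate 2 lay within the microbead range, so the groups overlapped, and saline replicate 3 was 13.1 times the mean of the other saline libraries. The log2 fold change was -3.69 with a standard error of 1.03 and an adjusted p of 0.0464 (edgeR), and the exact two-sided permutation test of the means gave p = 0.2. Without saline replicate 3 the log2 fold change was -1.36 with a standard error of 0.48 and an adjusted p of 0.101 (edgeR), and without saline replicate 1 it was -4.11 with an adjusted p of 0.0209 (edgeR). *Socs3* also did not pass without any 1 of the microbead libraries (adjusted p = 0.124 to 0.176, edgeR) or with limma-voom (adjusted p = 0.286). *Junb* and *Fos*, genes induced within minutes of a stimulus, were also highest in saline replicate 3, at 401 and 1179 CPM, against 16.9 to 35.6 and 12.4 to 26.2 CPM in the other saline libraries and 9.68 to 17.5 and 9.73 to 16.4 CPM after microbead injection.

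STAT factors bind paired half-sites, written TTCNNNGAA when 3 bases separate them, which reads the same on both strands. RefSeq gives a promoter window in GRCm38.p6 for 9 of the 10 genes, and the motif was searched in the 250 bases before the transcript start. *Socs3* was the 1 gene of the 9 with a match, as were 7.02% of the 32851 windows of this length. The *Socs3* window lies on the minus strand at chr11:117969367-117969616, and its match, in capitals, begins 154 bases before the start. The windows of *Serpina3n* (plus strand, chr12:104406458-104406707) and *Edn2* (plus strand, chr4:120160956-120161205), the genes called higher without saline replicate 1, are shown beside it for comparison and hold no match. Each is written 5′ to 3′, and a match describes letters, not binding.
Socs3: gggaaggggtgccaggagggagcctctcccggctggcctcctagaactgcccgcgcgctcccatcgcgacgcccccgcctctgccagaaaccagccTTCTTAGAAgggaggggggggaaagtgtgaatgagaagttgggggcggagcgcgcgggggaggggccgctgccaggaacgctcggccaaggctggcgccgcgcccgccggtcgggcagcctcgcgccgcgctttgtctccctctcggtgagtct
Serpina3n: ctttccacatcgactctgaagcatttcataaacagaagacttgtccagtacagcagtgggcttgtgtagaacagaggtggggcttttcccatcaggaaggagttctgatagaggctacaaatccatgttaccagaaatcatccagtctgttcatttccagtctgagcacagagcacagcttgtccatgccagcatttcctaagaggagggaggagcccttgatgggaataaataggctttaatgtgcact
Edn2: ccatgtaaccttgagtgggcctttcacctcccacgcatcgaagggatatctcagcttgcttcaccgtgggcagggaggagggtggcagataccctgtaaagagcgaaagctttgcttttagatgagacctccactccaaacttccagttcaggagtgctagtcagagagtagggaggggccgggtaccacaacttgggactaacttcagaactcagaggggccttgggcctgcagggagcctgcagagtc

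*Cebpd* (CCAAT/enhancer-binding protein delta, chromosome 16, 15887286 to 15891031) was at 112, 15.4 and 74.9 CPM in the saline libraries and at 13.9, 8.95 and 11.6 CPM in the microbead libraries. Every microbead library lay below every saline library, although saline replicate 2 and microbead replicate 1 lay next to each other. The log2 fold change was -2.54, a 5.83-fold lower level, with a standard error of 0.57 and an adjusted p of 0.0253 (edgeR). The exact two-sided permutation test of the means gave p = 0.1. Leaving out 1 library at a time gave log2 fold changes of -3.02 to -1.97, with adjusted p-values of 0.0031 to 0.115 (edgeR), under the threshold in 3 of the 6 fits. Those 3 were the fits without a saline library, and limma-voom gave an adjusted p of 0.096. *Spidr*, which overlaps *Cebpd* on the opposite strand, was at 7.74 to 14.1 CPM in the saline and 3.81 to 7.51 CPM in the microbead libraries.

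Further genes of the pathway were counted from lists. Among all genes tested, 6.31% were lower and 6.46% were higher, and a count of 1 in a short list is not read beyond that share. Of 8 tested ligands and receptors of the gp130 family, 1 was lower and 0 higher, with a median log2 fold change of -0.65. The lower gene was *Il6st*, which encodes gp130 itself, at 196, 163 and 164 CPM in the saline and 71.7, 128 and 90.7 CPM in the microbead libraries (log2 fold change -0.85, standard error 0.22, adjusted p = 0.0396, edgeR). That call held in 1 of the 6 fits that left out a library, the fit without microbead replicate 2, and the other 5 gave adjusted p-values of 0.0519 to 0.146 (edgeR). *Il6ra*, the interleukin-6 receptor, was at 0.309 to 3.21 CPM and did not pass (-1.06, adjusted p = 0.379, edgeR). Of 12 Janus kinases, other STAT factors and inhibitors, 1 was lower and 0 higher, with a median of -0.34. *Ptpn11*, the phosphatase SHP2, was at 164, 182 and 203 CPM in the saline and 78.0, 110.3 and 92.3 CPM in the microbead libraries (-0.97, standard error 0.19, adjusted p = 0.0168, edgeR), and did not pass without saline replicate 2 (adjusted p = 0.0637, edgeR) or microbead replicate 3 (0.0867). *Socs1*, an inhibitor related to *Socs3*, was highest in saline replicate 3 at 4.05 CPM (-1.77, adjusted p = 0.111, edgeR).

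Of 9 further STAT3-induced genes tested, 2 were lower and 0 higher, against 6.31% and 6.46% of all genes tested. Their median was -0.72. *Cebpb*, a relative of *Cebpd* in the acute-phase response, was at 7.22, 3.38 and 29.2 CPM in the saline and 0.463, 0.217 and 1.10 CPM in the microbead libraries (-4.46, standard error 0.87, adjusted p = 0.0175, edgeR). *Cebpb* passed in the 3 fits that left out a saline library, at -3.14 without saline replicate 3 (adjusted p = 0.0169, edgeR), and did not pass without any 1 of the microbead libraries (adjusted p = 0.0616 to 0.0773, edgeR) or with limma-voom (adjusted p = 0.102). *Junb* (-3.51, adjusted p = 0.0498, edgeR) was at -0.99 without saline replicate 3 (adjusted p = 0.0972, edgeR) and did not pass without any 1 of the microbead libraries (adjusted p = 0.149 to 0.161, edgeR), with RLE or upper-quartile scaling (0.0508 and 0.0522) or with limma-voom (0.218). Both genes belong to the list on account of their induction downstream of cytokine receptors, and both also respond to many other stimuli.

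Of 8 further genes common to reactive astrocytes after different injuries, 1 was lower and 0 higher, with a median of -0.76, and 5 of 8 were highest in saline replicate 1. Among all genes tested, 6.31% were lower and 16.4% were highest in saline replicate 1. *S1pr3*, a receptor for sphingosine 1-phosphate, was at 74.9, 47.2 and 68.1 CPM in the saline and 23.7, 26.6 and 19.6 CPM in the microbead libraries (-1.44, standard error 0.22, adjusted p = 0.0110, edgeR). It was under the threshold in 5 of the 6 fits that left out a library, the exception being the fit without microbead replicate 3 (adjusted p = 0.0700, edgeR). *Steap4*, a metalloreductase, reached 22.7 CPM in saline replicate 1 against at most 4.19 CPM in each other library (-2.08, adjusted p = 0.224, edgeR). Of 11 genes of the neuroinflammatory astrocyte state, 0 passed the test, with a median of -0.82, and 9 of 11 were highest in saline replicate 1. *Gbp2* and *H2-T23*, both induced by interferon, were at 43.1 and 33.0 CPM there and at most 12.4 and 10.2 CPM elsewhere (adjusted p = 0.134 and 0.112, edgeR). Of 9 tested genes of the astrocyte state described after ischemia, 0 passed, with a median of -0.45. Among those averaging at least 1 CPM over the libraries, the membrane protein gene *Tm4sf1* (-1.24, adjusted p = 0.0537, edgeR) and the sphingosine kinase gene *Sphk1* (-0.47, adjusted p = 0.236, edgeR) had the largest changes, and 3 of the 9 were highest in saline replicate 1. The single tested *Serpina3* paralog, *Serpina3g*, did not pass (-0.96, adjusted p = 0.504, edgeR).

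**Figure D4:**
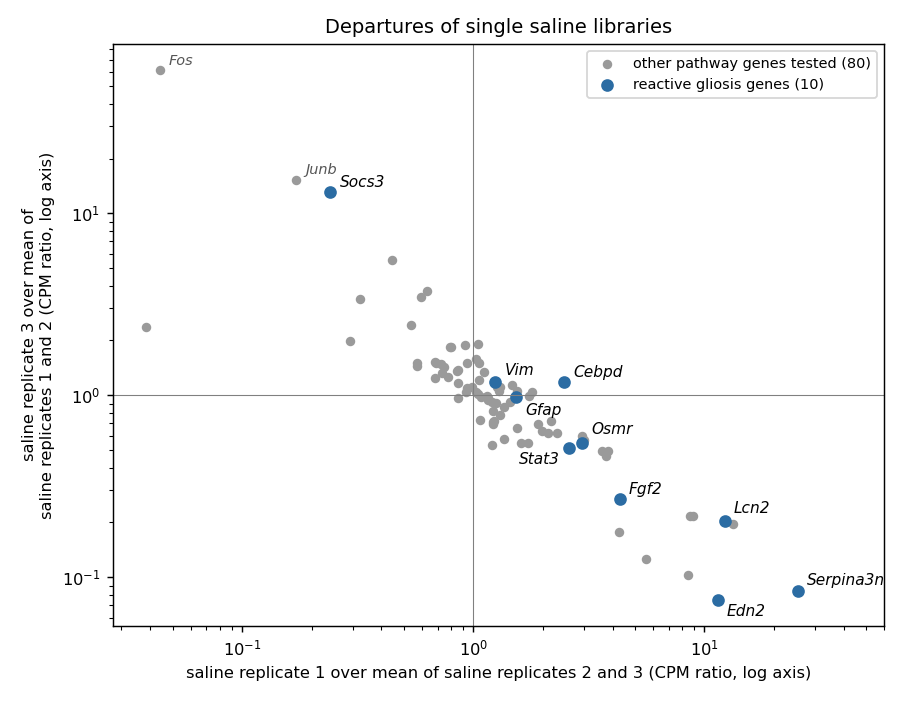
Level in saline replicate 1 over the mean of saline replicates 2 and 3 (x axis) against the level in saline replicate 3 over the mean of saline replicates 1 and 2 (y axis), both as CPM ratios on log axes, for the 10 genes (blue) and 80 other pathway genes tested (grey). *Serpina3n*, *Lcn2* and *Edn2* lie at 25.4, 12.2 and 11.4 on the x axis. *Socs3* lies at 13.1 on the y axis near *Junb* at 15.3, with *Fos* further out at 61.0. The axes share the same 3 libraries.

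Set against saline replicate 2 alone, the control library without either departure, the 10 genes fell into groups. Its level was below all 3 microbead libraries for *Gfap*, *Lcn2*, *Serpina3n* and *Edn2*, inside their range for *Fgf2*, *Stat3*, *Socs3* and *Osmr*, and above all 3 for *Vim* and *Cebpd*. This comparison was chosen after the levels were seen, and in a fit with saline replicate 2 as the only control, its spread taken from the microbead libraries, 0 of the 10 genes passed in either direction. *Vim* and *Cebpd* were thus lower against each saline library taken singly, and the other 8 were not.

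On a scale per exon length (CPM per 1000 bases covered by exons of any annotated transcript), levels of different genes compare only roughly. That length can exceed the length of the transcripts present. *Vim* had the highest mean in both groups, 46.9 in saline and 27.2 in microbead libraries, and *Osmr* the lowest, 2.18 and 1.35. In the saline libraries the order below *Vim* was *Serpina3n* (41.8), *Edn2* (34.3), *Socs3* (30.3), *Cebpd* (18), *Fgf2* (16.7), *Stat3* (12.3), *Lcn2* (9.30) and *Gfap* (9.10). The saline order rested on single libraries: *Serpina3n* ran from 4.11 to 116, *Edn2* from 3.73 to 87.4 and *Socs3* from 2.32 to 78.9. Without saline replicate 1, *Serpina3n* and *Edn2* averaged 4.58 and 7.67 and ranked 8 and 7, below *Gfap* at 7.74, and *Fgf2* and *Lcn2* averaged 7.98 and 1.96. Without saline replicate 3, *Socs3* averaged 6.05 and ranked 9, and *Serpina3n* (60.2) and *Edn2* (49.5) lay above *Vim* (44.3). *Serpina3n* (60.6) also lay above *Vim* (53.1) without saline replicate 2. These orders were computed after the levels were seen. In the order over all 3 saline libraries, only *Gfap* and *Osmr* were neighbours whose libraries did not overlap. In the microbead libraries the order was *Vim*, *Edn2* (21.4), *Fgf2* (13.3), *Serpina3n* (11.5), *Gfap* (11.3), *Stat3* (9.36), *Lcn2* (6.21), *Cebpd* (3.07), *Socs3* (2.35) and *Osmr*. There the neighbours *Vim* and *Edn2*, *Edn2* and *Fgf2*, and *Socs3* and *Osmr* did not overlap, and the other neighbours did.

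The genes whose profile over the 6 libraries lay nearest to that of *Gfap*, out of 15088 genes averaging 1 CPM or more, were *Abcb1b*, *Wdr63*, *Spice1*, *Vdr* and *2810468N07Rik*. The root mean square difference of their centred log2 levels from those of *Gfap* was 0.0808 for *Abcb1b* and 0.117, 0.141, 0.144 and 0.150 for the other 4 in that order. None of the 5 had an adjusted p under 0.05 in the fit of all 6 libraries (edgeR, 0.333 for *Vdr* to 0.616 for *Wdr63*), and none was among the 10 reactive gliosis genes. With 6 libraries and this many genes searched, the list is a description of these libraries.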

How the data were processed

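Whole retinas of C57BL/6 mice, 3 injected with saline and 3 with microbeads, gave stranded poly(A) libraries, which were grouped by the treatment in the sample records. Per the study's methods and the submitters' processing notes, the authors aligned reads with STAR 2.5.3a to GRCm38.p5 (GENCODE vM12), counted them with featureCounts 1.15.2 and deposited raw counts per gene. The deposited table also holds the authors' DESeq2 1.14 comparison (a mean signal, a log2 fold change, a linear ratio and p-values), which was not used. Total counts were 36085737, 46481382 and 37546884 for the saline and 19834366, 13574949 and 15647739 for the microbead libraries, and the smallest count of a member in any library was 85, so replicate spread rather than counting set the errors.

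Genes passed filterByExpr at a minimum count of 10 and total of 15. Libraries were scaled by TMM and compared with the two-sided quasi-likelihood test of edgeR 4.0.16 (R 4.3.3), with Benjamini-Hochberg adjustment over all genes and a threshold of 0.05. Standard errors are the log2 fold change over the root of the F statistic. CPM are counts per 1000000 of the scaled library size. Means were compared with an exact permutation test. Libraries of a group differed by at least 20.1 times sampling noise, so none was a copy. Alternatives were DESeq2 1.42.0, limma-voom (limma 3.58.1), scaling by RLE, by upper quartile or with the 100 most abundant genes dropped, a filter of 10 counts in each library or none, thinning to the smallest library, the replicate number as a block and each library left out. The steps were tested on simulated data.

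The members and lists were chosen with earlier results of these data known. All 10 members are named. From each list, the genes past the threshold with a mean of at least 1 CPM were named (at most 3 by size of change), or the 2 with the largest change where fewer than 2 passed. *Fos*, marker genes, overlapping genes and paralogs were named after their values were seen. Positions and exon lengths come from GENCODE vM21 on the same GRCm38 coordinates, and promoter windows from RefSeq. With 1 gene ID taken per symbol, 30977 of 31138 IDs matched GENCODE vM21.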

Additional observations from a re-analysis of the deposited data

How the results depend on the processing

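The count of 2261 genes past the threshold (edgeR) was 3582 with DESeq2, 3720 with no filter, 905 with the replicate block and 481 against saline replicate 2 alone, a setting chosen after seeing the data. It ran from 46 (without microbead replicate 3) to 2621 (without saline replicate 1) when libraries were left out. Of the 10 genes, 3 were lower in the fit of all libraries, where 6.31% of all genes tested were lower. With no filter 4 were lower (7.09% of all genes), and with upper-quartile scaling 2 (5.4%). The count was 1 with limma-voom (5.86%) and 1 with the replicate block (2.4%). When libraries were left out it was 0 to 2 (0.104% to 7.3%). The count of the 10 genes called higher was 0 in each fit of all libraries, and 0 to 2 when libraries were left out (0.135% to 7.83% of all genes). The cause of these shifts was not tested.

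*Lcn2*, *Edn2* and *Fgf2* changed sign with limma-voom (0.22, 0.45 and 0.027 on the log2 scale) and with the replicate block (0.085, 0.50 and 0.038). Against saline replicate 2 alone the log2 fold changes were 2.21 for *Lcn2*, 1.47 for *Serpina3n*, 0.87 for *Edn2*, 0.40 for *Fgf2*, 0.13 for *Stat3*, 0.0066 for *Socs3*, 0.11 for *Osmr*, 0.92 for *Steap4* and 0.066 for *Dusp6*. When libraries were left out, the values ran from -1.40 to 1.66 for *Lcn2*, -2.40 to 1.33 for *Serpina3n*, -1.21 to 1.47 for *Edn2*, -0.74 to 0.73 for *Fgf2*, -0.65 to 0.22 for *Stat3*, -0.98 to 0.027 for *Osmr* and -3.03 to 0.27 for *Steap4*, with the sign changed only without saline replicate 1. *Serpina3n* was lower with no filter (-1.90, adjusted p = 0.000973, edgeR) and had no adjusted p from DESeq2. Over the 9 alternatives that kept all libraries, *Vim* passed in 7, *Socs3* in 7 and *Cebpd* in 8, and no scaling alternative moved the median of all genes by more than 0.1.

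Deviations of same-numbered libraries correlated at -0.035, 0.136 and 0.010, so the numbers were not taken as pairs. With the replicate block, *Cebpd* passed (-2.20, adjusted p = 0.0459, edgeR), and *Vim* (-0.77, adjusted p = 0.0753), *Socs3* (-2.32, adjusted p = 0.192), *Il6st* (adjusted p = 0.0707), *Synm* (0.0618) and *Junb* (0.0997) did not.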
